A study of Rattus norvegicus with 5 samples.

Results

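The 100 transcripts described here were at least 1000 bases long, reached at least 5 TPM in the saline control ovary and were lower by at least 1 unit on the log2(TPM + 1) scale in each of 4 ovaries exposed to cisplatin. TPM is a level scaled by transcript length and by library size. They were drawn from 9340 transcripts that met the length and control minimum, which are called the compared transcripts below, and from 299341 listed in any library. They were chosen by their control level and their 4 differences from control, so those values are a description and carry no test.

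All ovaries came from female Sprague Dawley rats aged 10 to 12 weeks, and 1 ovary of the 6 rats in each of 5 groups was sequenced. The control group received 5 injections of 0.9% NaCl. The cisplatin groups received 3 mg/kg into the peritoneum weekly, 3 times in the mild model of premature ovarian insufficiency and 5 times in the severe model, without further treatment or with platelet-rich plasma (PRP). PRP from donor blood was injected into the ovary at laparotomy 1 week after the last cisplatin dose, antibiotics were given for 3 days, and tissue was taken 2 weeks later. Control tissue was taken 2 weeks after the last injection, and no source used here gives a separate time for cisplatin alone. The 4 treated libraries are called the mild, mild PRP, severe and severe PRP ovaries. Only the PRP groups had surgery and antibiotics, so PRP, surgery and antibiotics cannot be told apart. By the times above, the interval since the last injection also differed between control and PRP ovaries, and its part was not tested. The total estimated count per library ran from 26383246 to 31822055. Fragment length, measured as transcript length minus effective length, was shorter in the mild ovary (186 bases) and the severe PRP ovary (194.01 bases) than in the other 3 libraries (217.15 to 229.93 bases), and its part in the results was not tested.

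Cisplatin forms crosslinks in DNA and is toxic to ovarian follicles, the units of oocyte and surrounding granulosa cells that also make the ovary's steroid hormones. Premature ovarian insufficiency is the early loss of that follicle function. Platelets carry growth factors in their granules, and platelet-rich plasma is a concentrate of them. The files identify transcripts by running numbers and do not pair them with genes: 0 of the 299341 identifiers matched the reference gene table. The roles of the transcripts, their sequences and the markers of ovarian cell types therefore could not be given. In whole ovary, fewer cells of a type and less RNA per cell cannot be told apart.

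The 100 transcripts were mostly of modest abundance in the control ovary and low or missing after cisplatin. Their control levels ran from 5.12 to 1399 TPM with a median of 13.0 TPM. The median was 1.96 TPM in the mild ovary, 1.81 TPM in the mild PRP ovary, 1.99 TPM in the severe ovary and 0.73 TPM in the severe PRP ovary. Of the 100 transcripts, 31, 17, 30 and 11 still reached 5 TPM in these libraries, in the same order. Over the compared transcripts the median was 12.0 TPM in control, 14.5, 15.7 and 14.1 TPM in the first 3 of these libraries, and 9.95 TPM in the severe PRP ovary.

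**Figure D1:**
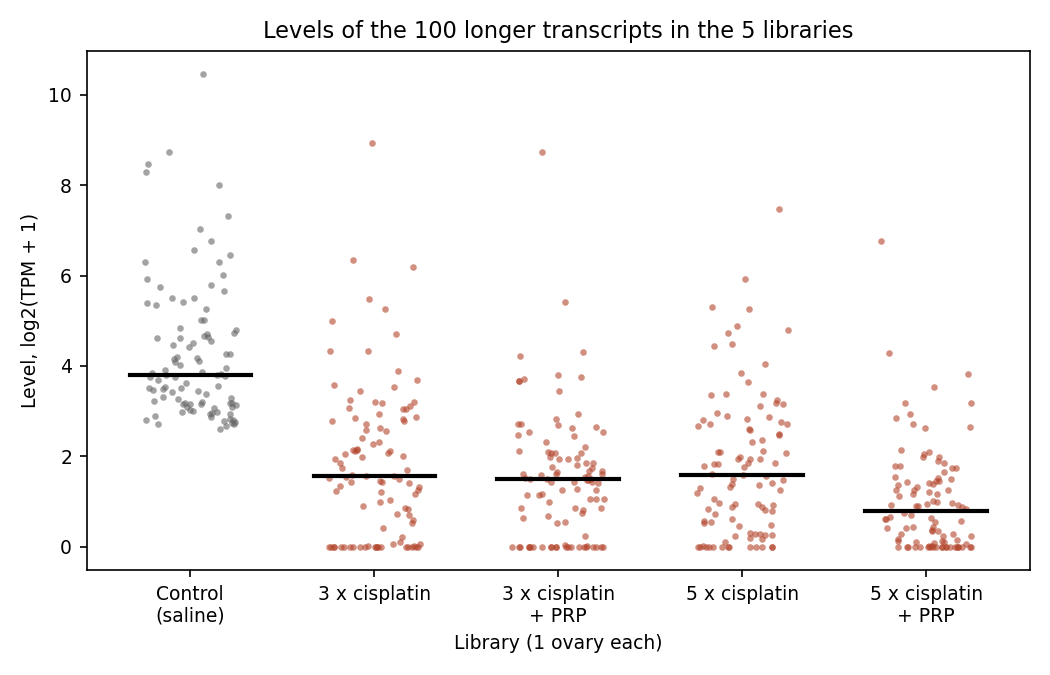
Each point is 1 of the 100 transcripts, placed by library on the horizontal axis and by level, log2(TPM + 1), on the vertical axis, with black bars at the medians. The control library holds no value under 5.12 TPM, as the choice of transcripts requires, while all 4 treated libraries have a row of points at 0.

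Together the 100 transcripts made up 0.497% of all TPM in the control library. Their share was 0.108% in the mild ovary, 0.0734% in the mild PRP ovary, 0.0689% in the severe ovary and 0.0271% in the severe PRP ovary. A single transcript held much of this sum. Without it the shares were 0.358% in control and 0.0590%, 0.0310%, 0.0514% and 0.0270% in the treated libraries, in the same order.

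A difference of this size was uncommon among the compared transcripts in 3 of the 4 comparisons with control. It was met by 4.14% in the mild ovary, 5.41% in the mild PRP ovary, 3.28% in the severe ovary and 17.8% in the severe PRP ovary, and by 1.07% in all 4 libraries at once. All 4 comparisons use the same control library, so 1 high control value counts in each of them. The median difference from control over all compared transcripts was 0.25, 0.34, 0.21 and -0.28 log2 units in the same library order. The severe PRP ovary therefore set the loosest limit, and with the requirement in that library lifted 110 transcripts qualified. Lifting it instead in the mild PRP ovary gave 136, in the mild ovary 160 and in the severe ovary 166.

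The smallest of a transcript's 4 differences from control was at least 1.5 log2 units for 49 of the 100, at least 2 for 19 and at least 5 for 3. The transcripts nearest the limit were close to those that missed it. Just inside, a transcript of 2179 bases had 5.85 TPM in control and 2.41 TPM in the mild PRP ovary, its highest treated level, a difference of 1.00 log2 units. Another of 1654 bases had 78.2 TPM in control and 38.3 TPM in the severe ovary, and one of 1728 bases had 39.9 TPM in control and 19.0 TPM in the mild ovary. Just outside, a transcript of 1042 bases had 5.82 TPM in control and 2.41 TPM in the severe ovary. One of 1116 bases had 5.74 TPM in control and 2.37 TPM in the mild ovary, and one of 1035 bases had 11.0 TPM in control and 5.01 TPM in the severe ovary.

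**Figure D2:**
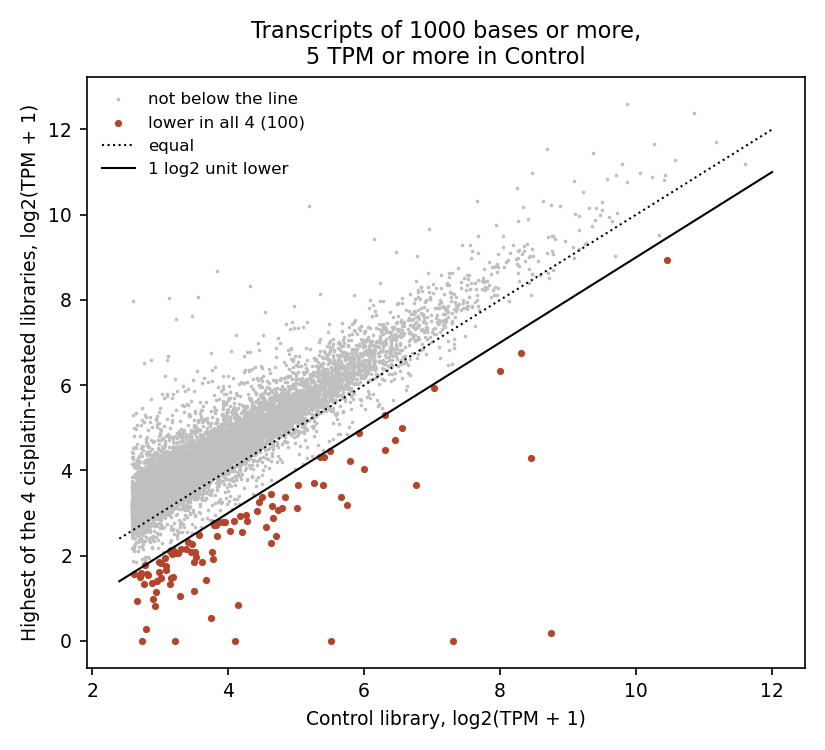
The level in control is on the horizontal axis and the highest level among the 4 treated libraries on the vertical axis, both as log2(TPM + 1), with 1 point for each of the 9340 compared transcripts. The 100 transcripts in red lie on or under the solid line 1 unit below equality, most of them close to it, and a few sit at 0 on the vertical axis.

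Although the length minimum was 1000 bases, the 100 transcripts lay at the short end of what it admitted. Their median length was 1355 bases against 3037 bases for the compared transcripts, and they ranged up to 10674 bases. Of the compared transcripts of 1000 to 1999 bases, 69 of 2596 (2.66%) were among the 100. The number was 16 of 3564 (0.449%) from 2000 to 3999 bases and 15 of 3180 (0.472%) at 4000 bases or more. Only the minimum was used in the choice, but the spread above it is not separate from counts of 0, which meet the limit by themselves. In at least 1 treated library 40 of the 69, 3 of the 16 and 1 of the 15 had 0 counts. The 56 transcripts above 0 counts in all treated libraries had a median length of 1785.5 bases. By control level, the share was 37 of 3858 (0.959%) between 5 and 10 TPM and 26 of 2739 (0.949%) between 10 and 20 TPM. It was 8 of 344 (2.33%) at 100 TPM or more. Control level was used in the choice, and with 1 TPM added a low transcript needs a larger fold in TPM to meet the limit. Nothing is therefore read from this difference.

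Most of the 100 transcripts shared reads with other transcripts. An estimated count that is not a whole number shows that reads were divided among similar sequences, and this was so in the control library for 92 of the 100. Among the compared transcripts, 92 of 6787 (1.36%) with a divided control count were among the 100, against 8 of 2553 (0.313%) with a whole one. A whole number can also arise where 1 of several similar transcripts takes all the reads. Whole estimates in all 5 libraries were found for 5 of the 100 and for 1810 of the 9340 (19.4%). The levels of the other 95 can move with how reads were divided in each library, and that part was not tested.

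**Figure D3:**
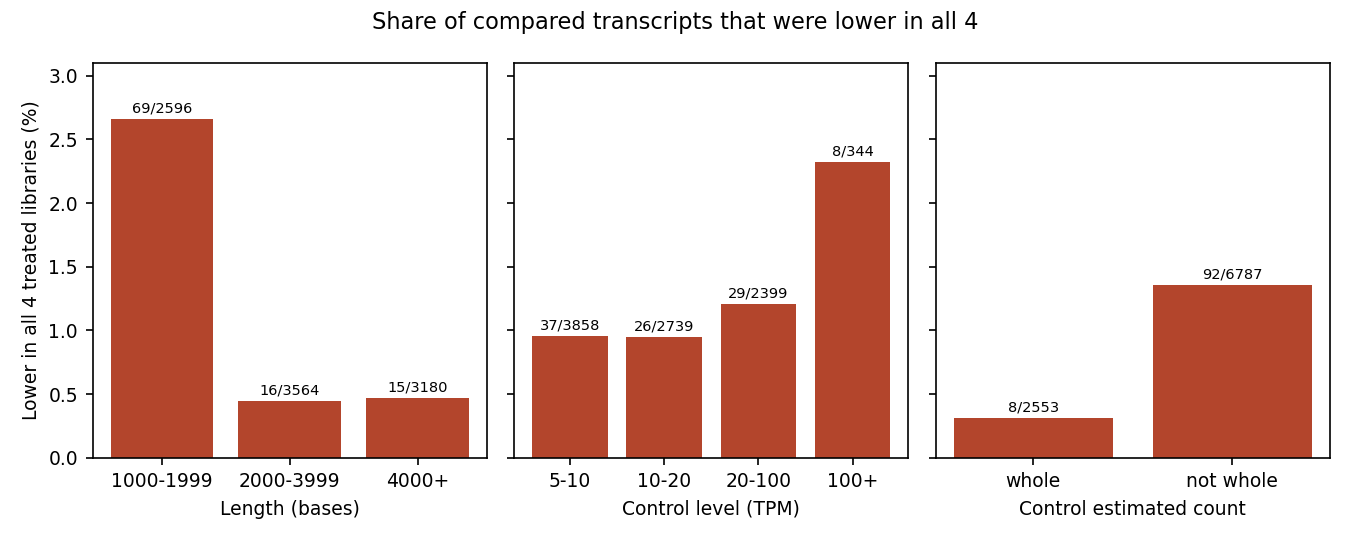
Bars give the percent of compared transcripts that were lower in all 4 treated libraries, by length in bases (left), by control level in TPM (middle) and by whether the control estimated count was whole (right), with the numbers above each bar. The tallest bar is the class of 1000 to 1999 bases at 2.66%, and the bar for whole counts is the lowest at 0.313%.

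The 5 transcripts with whole estimates throughout give the levels least open to divided reads. The most abundant of them, transcript_93764, of 1211 bases, had 93.0 TPM in control (95% counting interval 89.4 to 96.7). Its level was 30.7 TPM in the mild ovary (28.6 to 32.9), 13.0 TPM in the mild PRP ovary (11.6 to 14.6), 26.6 TPM in the severe ovary (24.5 to 28.9) and 6.22 TPM in the severe PRP ovary (5.42 to 7.10). In both schedules it was lower with PRP than with cisplatin alone, and the counting intervals did not overlap.

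The other 4 with whole estimates were low after cisplatin in every library. One of 1234 bases had 16.8 TPM in control and 0.338, 0.807, 0.132 and 0.0837 TPM in the mild, mild PRP, severe and severe PRP ovaries. One of 2001 bases had 12.7 TPM in control and 2.82, 1.07, 0.226 and 0.177 TPM in that order, so that it was lowest in the severe model with or without PRP. A transcript of 1286 bases had 6.94 TPM in control and 1.04, 2.06, 0.461 and 0.345 TPM. The last, of 1711 bases, had 6.06 TPM in control and 1.93, 0.607, 0.899 and 0.631 TPM. In each of the 5 the severe ovary was below the mild ovary, with a median difference of -0.48 log2 units. Of the 1810 compared transcripts with whole estimates throughout, 1116 were also lower, with a median of -0.09. The counting intervals of the mild and severe ovaries overlapped for transcript_93764 and for the transcripts of 1234 and 1286 bases.

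Among the most abundant transcripts the 4 treated libraries differed widely from each other. The highest in control, transcript_63059, of 1062 bases, had 1399 TPM (1383 to 1414). It had 486 TPM in the mild ovary (477 to 495), 424 TPM in the mild PRP ovary (415 to 433), 176 TPM in the severe ovary (170 to 182) and 1.17 TPM in the severe PRP ovary (0.815 to 1.63). It was thus 2.88-, 3.30-, 7.96- and 1193-fold lower than control in TPM. Its counts were whole in control but not in every library.

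The next in control, of 1441 bases, was nearly absent from all treated libraries. It had 427 TPM in control (420 to 434), 0 counts in the mild and mild PRP ovaries, 0.148 TPM from 4 counts in the severe ovary and 0.0405 TPM from 2 counts in the severe PRP ovary. Against a floor of 3 counts per library it was at least 4545-fold lower in the mild model and at least 4050.0-fold lower with PRP added.

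A transcript of 1938 bases had 351 TPM in control (346 to 357) and was nearly absent after cisplatin alone. It had 0.157 TPM in the mild ovary (0.0632 to 0.324) and 0 counts in the severe ovary. With PRP it stood at 1.70 TPM in the mild model (1.33 to 2.16) and 18.5 TPM in the severe model (17.5 to 19.7), so both PRP libraries were above their cisplatin library and far below control.

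The pattern of transcript_318468, of 1487 bases, was different again. Its level was 314 TPM in control (309 to 320), 71.8 TPM in the mild ovary (69.0 to 74.8) and 0 counts in the mild PRP ovary. It was 4.11 TPM in the severe ovary (3.41 to 4.94) and 107 TPM in the severe PRP ovary (104 to 110). This was the largest upward difference with PRP in the severe model among the 100, 4.40 log2 units, while in the mild model the PRP library was 6.19 log2 units lower.

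A transcript of 1608 bases was graded across the libraries. It had 254 TPM in control (249 to 259), 79.9 TPM in the mild ovary (77.0 to 82.9), 41.3 TPM in the mild PRP ovary (39.2 to 43.6), 37.3 TPM in the severe ovary (35.2 to 39.5) and 6.65 TPM in the severe PRP ovary (5.95 to 7.41). The counting intervals of the mild PRP and severe ovaries overlapped, and the others were apart.

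Counts rounding to 0 were frequent among the 100 transcripts. In at least 1 treated library 44 of the 100 had 0 counts, against 190 of the 9340 compared transcripts (2.03%). A count of 0 meets the limit in that library by itself, so the first number is no separate result. Of the 44, 22 were at 0 in 1 library, 12 in 2, 5 in 3 and 5 in all 4. Where it was 1 library only, this was the mild PRP ovary for 11, the mild ovary for 4, the severe ovary for 3 and the severe PRP ovary for 4. By length, zeros were found in 40 of the 69 transcripts under 2000 bases, in 3 of the 16 from 2000 bases and in 1 of the 15 from 4000 bases. Over the compared transcripts zeros were also more frequent in the shortest class, at 5.70%, 0.730% and 0.503% in the same order.

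The 5 transcripts at 0 counts in every treated library were 1075 to 1372 bases long, and none had a whole control estimate. Their control levels were 158, 44.5, 16.1, 8.33 and 5.68 TPM, from 158 to 3882 estimated counts. For the most abundant, of 1131 bases, the floor of 3 counts makes the mild ovary at least 1265-fold lower than control, the mild PRP ovary at least 1118-fold, the severe ovary at least 1073-fold and the severe PRP ovary at least 1700.0-fold. For the least abundant, of 1251 bases, the lowest of these bounds was 43.7-fold.

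The 15 transcripts of 4000 bases or more had a median of 8.10 TPM in control and at most 24.98 TPM. Their medians were 1.75 TPM in the mild ovary, 1.88 TPM in the mild PRP ovary, 1.48 TPM in the severe ovary and 0.55 TPM in the severe PRP ovary. Their control estimates rested on 722 to 3653 counts each, so counting error was small in control.

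Some of the 100 transcripts lay next to each other in the numbering. Within 5 numbers of another of the 100 were 14 transcripts, in 7 pairs, of which 3 pairs had consecutive numbers. No source used here says what the numbering follows. The partner of transcript_93764, of 1339 bases, had 86.5 TPM in control and 25.2, 12.5, 25.3 and 10.7 TPM in the mild, mild PRP, severe and severe PRP ovaries. Its counting intervals overlapped those of transcript_93764 in the control, mild PRP and severe ovaries. They were apart in the mild ovary, where it was lower, and in the severe PRP ovary, where it was higher. A second consecutive pair, of 2665 and 2108 bases, had 17.4 and 54.5 TPM in control. These 2 had 4.31 and 13.9 TPM in the mild ovary, 4.85 and 17.7 TPM in the mild PRP ovary, 2.61 and 5.02 TPM in the severe ovary and 2.17 and 8.10 TPM in the severe PRP ovary. The third consecutive pair was the transcript of 1441 bases at 427 TPM and the one of 1251 bases at 5.68 TPM, both at or near 0 in all treated libraries.

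The levels of neighbours in number were also summed. Taken over up to 5 numbers on either side, with the 100 transcripts left out, neighbours reached 5 TPM in control for 77 of the 100. This sum was at least 1 log2 unit lower in all 4 treated libraries for 2 of the 77 (2.60%), against 34 of 8428 sums around compared transcripts (0.403%). It was at least 1 unit higher in all 4 for 0 of the 77, against 21 of the 8428. With the transcript itself and all its neighbours summed, 26 of the 100 sums were lower by 1 unit in all 4 libraries, against 41 of the 9340 (0.439%). These sums hold the transcript chosen for being lower, so nothing is read from them. These comparisons share the control library with the choice of transcripts and are given as counts only.

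The choice of transcripts capped all 4 treated levels but left their order free, so the next comparison asked how ovaries given PRP after cisplatin differed from those given cisplatin alone. In the mild model, 18 of the 100 lay 2-fold or more above cisplatin alone with PRP, on the log2(TPM + 1) scale, and 25 lay 2-fold or more below it, against 6.53% higher and 5.76% lower among the compared transcripts. The median difference was -0.0047 log2 units, against 0.07. Among the 56 transcripts above 0 counts in all treated libraries, 5 (8.93%) were higher and 9 (16.1%) lower, so 13 of the 18 and 16 of the 25 came from transcripts with a 0, a value that the choice of transcripts used. Of those with divided control counts, 17 of 92 were higher and 24 lower, against 7.59% and 6.20% of the 6787 compared transcripts with divided control counts. Counting intervals were apart for all 18 and all 25, which were picked for a 2-fold difference. The same was not counted over the compared transcripts, so nothing is read from it.

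The largest upward difference with PRP in the mild model was that of transcript_313502, of 1078 bases. Its level was 9.68 TPM in control (8.46 to 11.0), 0.0769 TPM in the mild ovary from 2 counts (0.0107 to 0.319) and 3.96 TPM in the mild PRP ovary (3.14 to 4.94). In the severe ovary it had 0 counts, and in the severe PRP ovary 0.209 TPM (0.0723 to 0.429). The difference with PRP was 2.20 log2 units in the mild model and 0.26 in the severe model. Its estimates were divided, so its level is uncertain where similar transcripts took the reads.

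In the severe model the differences with PRP were mainly downward. Of the 100, 7 lay 2-fold or more above cisplatin alone and 34 lay 2-fold or more below it, against 1.56% and 22.5% of the compared transcripts. The median difference was -0.56 log2 units, against -0.45 over the compared transcripts, so the medians lay near each other on this scale. From 20 TPM in control they lay further apart, at -1.39 and -0.25. Of those with divided control counts, 6 of 92 were higher and 32 lower, against 1.84% and 24.3% of such compared transcripts. Among the 56 above 0 counts throughout, 2 (3.57%) were higher and 16 (28.6%) lower. Counting intervals were apart for all 7 and all 34, which were picked in the same way, so nothing is read from this either. The median depended on the settings and ran from -0.041 with quantile normalization to -1.39 with a control minimum of 20 TPM.

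The 37 transcripts at 20 TPM or more in control had values less compressed by the added 1 TPM. In both models they had larger shares lower and larger shares higher with PRP than the compared transcripts at that level. In the mild model 15 of the 37 were at least 2-fold lower and 4 higher, with a median of -0.62 log2 units, against 8.17% and 4.99% and a median of -0.02 over 2743 compared transcripts at that level. In the severe model 20 of the 37 were lower and 2 higher, with a median of -1.39, against 17.2% and 1.82% and a median of -0.25. The choice of transcripts used control level and required low levels in both PRP libraries. Some of those lower in the mild model, such as transcript_318468, had 0 counts in the mild PRP ovary, which meets the limit there by itself. Transcripts with 0 counts were not set apart at this control level, so nothing is read from the larger shares or the medians. No ovary was repeated, so the spread between animals is unknown and neither model's difference was tested.

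With both schedules set side by side, 12 of the 100 were at least 2-fold lower with PRP in both, against 2.39% of the compared transcripts. The 2 PRP comparisons share no library, but the choice of transcripts required low levels in both PRP libraries against the same control. Nothing is therefore read from the larger share. These 12 had a median of 34.4 TPM in control, 7.93 TPM in the mild ovary and 10.5 TPM in the severe ovary. With PRP the medians were 0.00 TPM in the mild model and 1.47 TPM in the severe model. That treated levels were below control, and lower with PRP, was fixed by how the 100 and the 12 were chosen. In 9 of the 12 at least 1 treated library had 0 counts. One of 1180 bases had 130 TPM in control (125 to 134), 44.0 TPM in the mild ovary (41.4 to 46.6), 0 counts in the mild PRP ovary, 59.9 TPM in the severe ovary (56.7 to 63.3) and 8.03 TPM in the severe PRP ovary (7.11 to 9.05).

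With PRP, 2 of the 100 were at least 2-fold higher in both models, against 0.246% of the compared transcripts. Both had 0 counts in at least 1 treated library, which meets the limit there by itself, so nothing is read from the larger share. They were the transcript of 1938 bases described above and one of 1000 bases. The latter had 10.6 TPM in control, 0 counts after cisplatin alone in both schedules, and 2.92 TPM (2.19 to 3.83) and 1.92 TPM (1.43 to 2.496) with PRP in the mild and severe models. Neither reached the control level in any treated library, as the choice of transcripts requires. Across the 100, the 2 PRP differences had a Spearman correlation of 0.319, against -0.116 across the compared transcripts. The points of each share 4 libraries and their scaling, and transcripts are not replicates. The choice of transcripts also capped all 4 treated levels, and 44 of the 100 had 0 counts in at least 1 treated library. The higher correlation is therefore not read as a result.

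**Figure D4:**
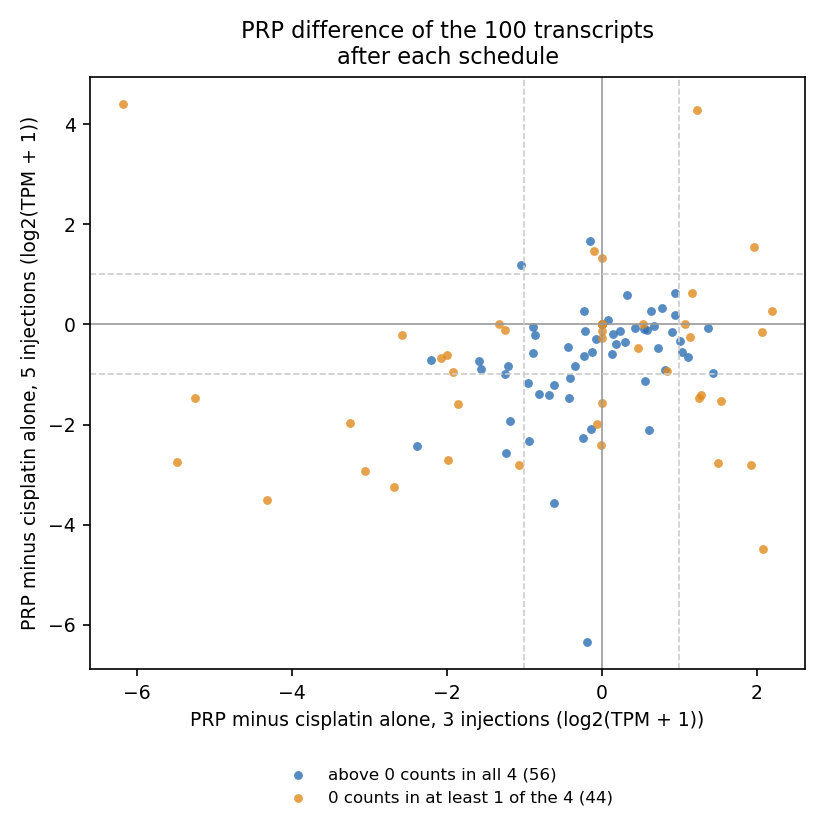
The difference in log2(TPM + 1) between PRP and cisplatin alone is plotted in the mild model (horizontal) and in the severe model (vertical), with 1 point per transcript and dashed lines at 1 unit. The lower left corner holds the 12 transcripts lower with PRP in both models, and the points farthest left and right are among the 44 with 0 counts in at least 1 treated library (orange).

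The schedules, 3 and 5 injections, were also compared without PRP. In the severe ovary 16 of the 100 had 2-fold or more the level of the mild ovary and 20 lay 2-fold or more below it, against 4.88% and 2.98% of the compared transcripts. The median difference was -0.00020 log2 units, against -0.06. Among the 56 transcripts above 0 counts in all treated libraries, 6 lay above and 14 below at this limit, and their median was -0.27. Between the 2 PRP ovaries, 12 of the 100 were higher in the severe one and 34 were lower, against 2.59% and 29.2%, with a median of -0.60 against -0.56. Of the 56 above 0 counts throughout, 0 lay above and 23 (41.1%) below, and their median was -0.86, so all 12 higher ones had a 0 in a treated library.

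Which treated ovary held the lowest level varied among the 100. Of the 78 with at most 1 treated library at 0 counts, the severe PRP ovary was lowest for 41 (52.6%), the mild PRP ovary for 18 (23.1%), the severe ovary for 12 (15.4%) and the mild ovary for 7 (8.97%). Over 9277 compared transcripts of this kind, the severe PRP ovary was lowest for 64.1% and the mild PRP ovary for 12.4%. Among the 78, 22 had 1 library at 0 counts, which was then the lowest. This was the mild PRP ovary for 11, the mild ovary for 4, the severe ovary for 3 and the severe PRP ovary for 4. A count of 0 meets the limit by itself, so nothing is read from the difference in these shares. One or other PRP library was thus the lowest for most of these transcripts, as it was for the compared transcripts.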

How the data were processed

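Per the labels' protocols, RNA was extracted with a Zymo Research column kit and stranded mRNA libraries with a Collibri kit. HISAT2, fastp, MultiQC and FastQC appear, unversioned, in the submitters' processing notes. No source used here names the quantification program, the transcripts or the genome build. Per the file headers, the authors deposited an estimated count, length, effective length and TPM value for each listed transcript. The deposited TPM column was treated as a score, because 61 to 110 values per library were over 100 times too large against count and effective length. TPM was recomputed from the deposited estimated counts and effective lengths to a fixed total. Before this, 0 to 5 estimated counts per library, too large in the same way, were divided by 1000. Unlisted transcripts were taken as 0.

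Differences are of log2(TPM + 1), which understates those of low transcripts. Counts within 1e-06 of a whole number were called whole. Intervals are exact Poisson 95% intervals on rounded counts, floors are 3 counts, and both cover counting error only. With 1 library per group the spread within groups is unknown. No test was run and no p-value is given. A fit that takes the 2 schedules as repeats of 1 PRP effect was not run. Up to 4 numbers were printed, chosen by control level, whole estimates and the largest upward difference with PRP. Other transcripts are given by length. The transcripts and rules were chosen with earlier results of these data known. The selection was also run on simulated data that held counting error only. These had no spread between animals and no divided reads, so they say nothing about either. Python 3.11.15, numpy 2.4.6, pandas 2.3.3 and scipy 1.17.1 were used.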

Additional observations from a re-analysis of the deposited data

Results flagged for a closer look

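The difference with PRP took opposite directions in the 2 models in 8 of the 100 transcripts, at 2-fold or more each way. In 6 of them the level was higher with PRP in the mild model and lower in the severe model, against 3.17% of the compared transcripts. In the other 2 it was lower in the mild model and higher in the severe model, against 0.236%. The differences between schedules were not tested, since each rests on 4 single libraries. All 6 had 0 counts in at least 1 treated library, and so had 1 of the other 2. A count of 0 meets the limit in that library by itself, so nothing is read from the larger shares. The median of the 6 was 11.6 TPM in control, 0.00 TPM in the mild ovary, 1.87 TPM in the mild PRP ovary, 4.52 TPM in the severe ovary and 0.00 TPM in the severe PRP ovary. The most abundant of them, of 1066 bases, had 78.1 TPM in control, 0 counts in the mild ovary and in the severe PRP ovary, 3.26 TPM in the mild PRP ovary and 21.5 TPM in the severe ovary. Both libraries at 0 were those with short fragments, and the part of fragment length was not tested. The 2 that went the reverse way were transcript_318468 and one of 3821 bases, which had 7.87 TPM in control and 3.31, 1.08, 0.474 and 2.36 TPM in the mild, mild PRP, severe and severe PRP ovaries.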

How the results depend on the processing

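The number of transcripts that qualified was 147 with median-of-ratios scaling, 113 with quantile normalization, 142 with the TPM column as deposited and 112 with a pseudocount of 0.1, against 100. It was 218 with CPM, 46 with a pseudocount of 5, 160 with a control minimum of 1 TPM or none, 37 with 20 TPM, 331 from 500 bases, 31 from 2000 bases, 19 with a difference of 2 log2 units and 5 with whole estimates only. It was 160 without the limit in the mild ovary and 166 without that in the severe ovary. The median PRP difference in the mild model was -0.25 with quantile normalization, 0.11 as deposited, -0.62 from 20 TPM, 0.19 from 2000 bases and -0.87 with whole estimates. In the severe model it stayed below 0, at -0.041 with quantile normalization and -0.31 with median-of-ratios scaling. There it was -0.94 and -0.15 with pseudocounts of 0.1 and 5, -0.19 from 1 TPM and -1.39 from 20 TPM. It was -0.32 from 2000 bases, -0.063 with a difference of 2 units and -0.12 with whole estimates. The median of 5 against 3 injections was 0.050 as deposited, -0.20 from 2000 bases and -0.48 with whole estimates. The cause of these shifts was not tested. The neighbourhood sums lower in all 4 numbered 43 with a window of 2 numbers and 17 with 10, against 26. Leaving out a replicate was not possible, because each group has 1 library. A paired fit with the 2 schedules as pairs was not run.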
